A study of Mus musculus with 12 samples.

Results

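The genes described are 48 genes of mitosis and cytokinesis, the steps in which a cell separates its copied chromosomes and divides. They were taken by symbol from a list of names, and all 48 were found among the 17471 genes listed in the library files. RNA was sequenced from the left ventricle of mice aged 6 to 10 weeks, 4 days after surgery. In the infarcted mice (MI) the left anterior descending artery of the heart had been tied off, and the sham mice had surgery without this. There were 4 groups of 3 libraries: Cre-positive MI, Cre-negative MI, Cre-positive sham and Cre-negative sham.

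The mice came from a line with a floxed Yap1 gene, which encodes a transcriptional coactivator of the Hippo pathway, and a line with the tamoxifen-inducible recombinase MerCreMer at the Postn gene. Postn is switched on in activated fibroblasts, so excision of Yap1 was directed to those cells, and carriers also have an altered Postn allele. A tamoxifen citrate diet was given from surgery on to every group, and Cre-negative mice lack the recombinase. The labels number the libraries of a group as replicates without naming animals, so p-values measure the spread between these libraries, which may in part be technical.

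A cell enters mitosis when the kinase Cdk1, bound to an A-type or B-type cyclin, becomes active. Condensins and topoisomerase II compact the chromosomes, kinetochores attach them to the spindle, and a checkpoint holds back separation until every chromosome is attached. The anaphase promoting complex then marks securin and the cyclins for destruction, and the central spindle and the contractile ring complete the division. Most adult cardiomyocytes have left the cell cycle, while fibroblasts, endothelial cells and immune cells of an infarcted heart are known to divide.

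Many of these genes are repressed in resting cells and switched on in G2 through a short promoter element, the cell cycle homology region (CHR), often beside CCAAT boxes, to which the factor NF-Y binds. RefSeq promoter windows on GRCm38.p6, the assembly that mm10 names, were at hand for 41 of the 48 genes. Each runs from 250 bases before to 50 after an annotated start. Smc4, Ccna2, Aurkb, Tpx2, Pbk, Foxm1 and Kif20a had no window in that table. The letters searched, on both strands, were TTTGAA or TTCGAA for the CHR, CCAAT for the CCAAT box, and TTTCGCG or TTTGGCG for an E2F-like site, and 2 matches in the members' windows overlapped a match of another motif.

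A CHR was found for 32 of the 41 members (78.0%), and for 2378 of the 13822 genes of the library files that have a window (17.2%). From 30 bases before to 50 after the start, 29 members (70.7%) held one, against 3.5% of those genes. At least 1 CCAAT box stood in 30 members (73.2%), against 42.4% of all such genes, and 2 or more in 20 members (48.8%), against 15.2%. A CHR together with a CCAAT box was present in 27 members (65.9%), against 8.3%, and an E2F-like site in 5 members (12.2%), against 4.1%. These are counts of letters with no test, and they do not show that a factor binds. Some windows start well inside the annotated gene, by 3852 bases for Kif2c, 646 for Cdca3, 514 for Ncapd2 and 316 for Aurka. Those of Ect2 start 399 and 375 bases inside. All of these genes were counted as holding a CHR, though their windows leave out the sequence before the gene's outer end.

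The stretches from 110 bases before to 30 bases after the start are printed for 6 members, chosen after their values were seen. Cdk1, Ccnb2 and Top2a rose strongly after infarction and hold both motifs. Ccnb1 has CCAAT boxes without the CHR letters, and Cenpf and Pttg1 are the members that did not rise in both genotypes. Capitals mark the CHR and CCAAT letters on either strand, and the sequences run 5′ to 3′ along the gene's own strand, which is the minus strand for all 6. They lie at chr10:69352883-69353022 for Cdk1, chr9:70421525-70421664 for Ccnb2, chr11:99024160-99024299 for Top2a, chr13:100786457-100786596 for Ccnb1, chr1:189688057-189688196 for Cenpf and chr11:43425952-43426091 for Pttg1.
Cdk1: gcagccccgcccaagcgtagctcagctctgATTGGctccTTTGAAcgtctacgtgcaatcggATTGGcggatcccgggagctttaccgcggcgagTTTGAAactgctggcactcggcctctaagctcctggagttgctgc
Ccnb2: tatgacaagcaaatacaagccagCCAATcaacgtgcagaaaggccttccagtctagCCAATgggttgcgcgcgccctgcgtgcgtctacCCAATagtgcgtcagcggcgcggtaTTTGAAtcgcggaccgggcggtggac
Top2a: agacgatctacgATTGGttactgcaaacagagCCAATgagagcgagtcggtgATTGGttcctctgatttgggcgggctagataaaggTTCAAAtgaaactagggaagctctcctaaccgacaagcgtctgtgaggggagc
Ccnb1: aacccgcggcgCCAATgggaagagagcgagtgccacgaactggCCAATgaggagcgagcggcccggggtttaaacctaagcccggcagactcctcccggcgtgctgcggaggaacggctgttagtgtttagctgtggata
Cenpf: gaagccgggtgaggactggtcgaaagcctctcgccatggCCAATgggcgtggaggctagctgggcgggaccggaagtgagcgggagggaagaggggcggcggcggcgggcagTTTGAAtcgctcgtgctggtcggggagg
Pttg1: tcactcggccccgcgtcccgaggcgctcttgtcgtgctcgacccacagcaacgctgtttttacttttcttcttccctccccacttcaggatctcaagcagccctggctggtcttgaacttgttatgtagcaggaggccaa
The annotated start is counted as the first positive position, there is no position 0, and bases before the start are negative. On this count CHR letters begin at -71 and -15 in the Cdk1 stretch, at 5 in Ccnb2, at -23 in Top2a and at 3 in Cenpf. Neither run of letters was found in the Pttg1 window, but its start lies 1482 bases inside the annotated gene, so the window leaves out the sequence before the gene's outer end.

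Total counts per library were 13609502 to 14132503 for Cre-positive MI, 13823268 to 15176286 for Cre-negative MI, 10679705 to 13608483 for Cre-positive sham and 10257675 to 11726159 for Cre-negative sham. Levels are given as CPM, counts scaled to a common library size with TMM factors, and levels compared between genes as FPKM, which also divides by transcript length. Cardiomyocyte markers, led by Myh6, were high in all 12 libraries. Cre-positive sham replicate 2 stood apart, with 70690 CPM of these markers and 168 CPM of macrophage markers. The other two of its group had 121300 and 129600 CPM of cardiomyocyte and 559.2 and 420.3 CPM of macrophage markers. Without that library the same number of members was called in each of the 5 comparisons. Reads of 4 Y-linked genes, taken as present above 10 summed CPM, were found in 1 of 3 Cre-positive MI, 3 of 3 Cre-negative MI, 0 of 3 Cre-positive sham and 2 of 3 Cre-negative sham libraries, and the labels give no sex.

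Yap1 (Entrez 22601, chromosome 9, 7931999 to 8004638) had 93.9, 92.9 and 91.1 CPM in Cre-positive MI libraries, against 84.6, 96.4 and 93.99 CPM in Cre-negative MI libraries. After sham surgery it had 121, 102 and 107 CPM in Cre-positive sham libraries, against 116, 115 and 114 CPM in Cre-negative sham libraries, and the genotypes overlapped after both surgeries. A count over a whole gene in whole ventricle does not show excision in a minority of cells. Postn had 603, 628 and 674 CPM in Cre-positive MI libraries, against 1590, 1528 and 1729 CPM in Cre-negative MI libraries, and after sham surgery 10.2, 3.76 and 11.4 CPM in Cre-positive sham libraries, against 111, 86.8 and 62.7 CPM in Cre-negative sham libraries, with no overlap in either case.

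Most of the 48 genes were read well after MI and barely in sham hearts. Summed over the 43 members that averaged under 5 CPM in sham hearts, a limit set after the values were seen, the level after MI was 440, 454.4 and 592.2 CPM in Cre-positive libraries and 749.8, 716.7 and 726.7 CPM in Cre-negative libraries. After sham surgery the same 43 genes summed to 24.29, 28.13 and 24.34 CPM in Cre-positive libraries and 30.76, 38.04 and 51.74 CPM in Cre-negative libraries. The other 5, Pttg1, Ncapd2, Cenpf, Smc4 and Hmmr, were read in sham hearts too. In bulk tissue, fewer dividing cells and less RNA per dividing cell cannot be told apart.

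**Figure D1:**
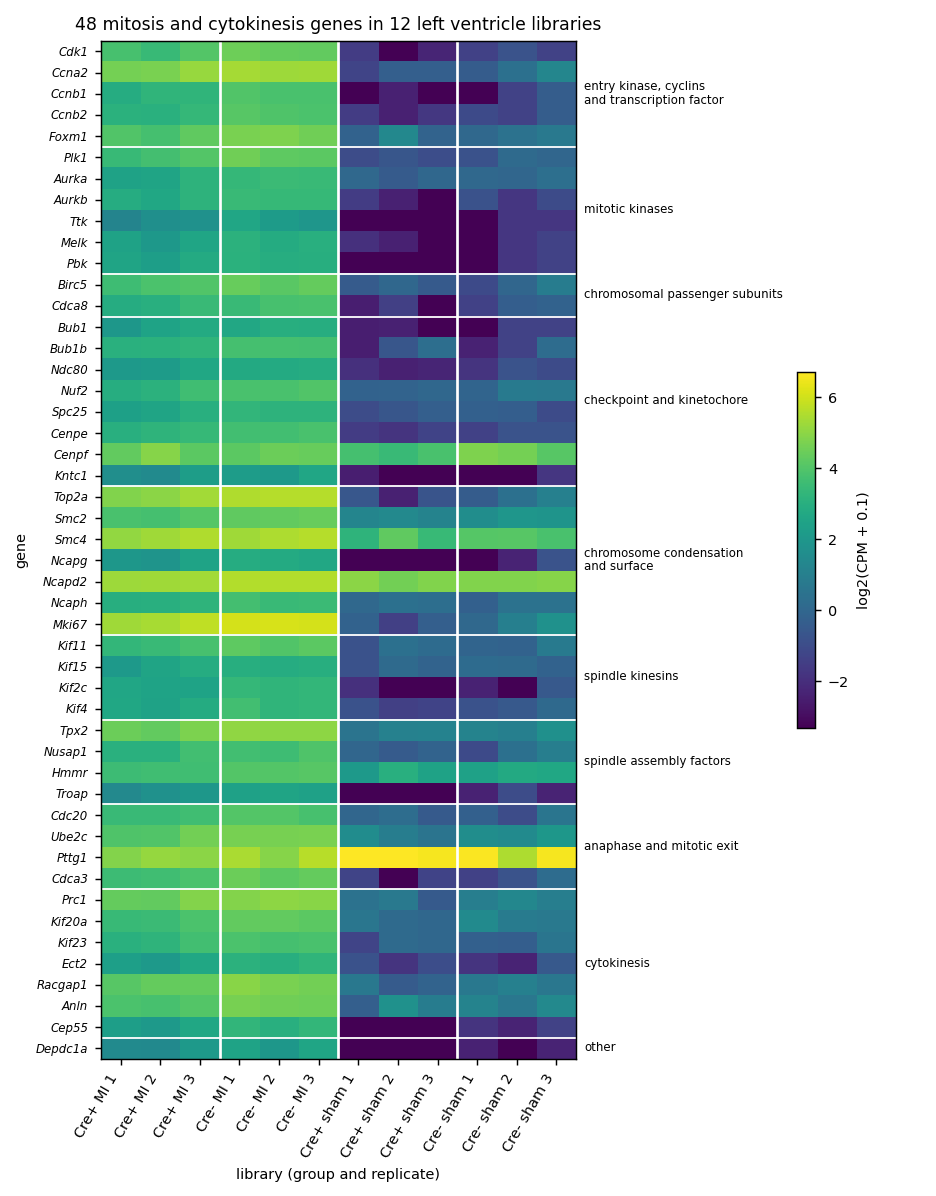
Heat map of log2(CPM + 0.1) for the 48 genes (rows, grouped by role) in the 12 libraries (columns, 3 per group). MI columns are high and sham columns low for most genes. Pttg1, Ncapd2, Cenpf, Smc4 and Hmmr are high in sham columns as well, and Pttg1 is lower in Cre-positive MI than in Cre-positive sham columns.

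Scaled by length, Pttg1, which encodes securin, had the highest level of the 48 genes in each group, at 45.3 ± 3.71 FPKM in Cre-positive MI, 60.9 ± 14.6 in Cre-negative MI, 124 ± 5.34 in Cre-positive sham and 101 ± 37.1 in Cre-negative sham hearts (SD, n = 3 each). After MI the next was Ube2c, a ubiquitin-conjugating enzyme of the anaphase promoting complex, at 21.4 ± 5.53 FPKM in Cre-positive and 30.96 ± 0.332 in Cre-negative hearts. Birc5, the survivin subunit of the chromosomal passenger complex, followed at 13.1 ± 1.91 FPKM in Cre-positive and 18.9 ± 1.86 in Cre-negative hearts. The lowest was Kntc1, a kinetochore protein, at 0.523 ± 0.172 FPKM in Cre-positive and 0.773 ± 0.133 in Cre-negative hearts.

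The first pair of comparisons asked what infarction does to these genes in each genotype. In Cre-positive hearts 47 of the 48 rose and 1, Pttg1, fell at an adjusted p under 0.05 (edgeR quasi-likelihood test, adjusted over 13678 genes), where 25.7% of all genes tested were called higher and 19.5% lower. In Cre-negative hearts 46 rose, Pttg1 fell and Cenpf was not called, where 29.9% of all genes were called higher and 24.4% lower. The median log2 fold change of the 48 was 4.24 in Cre-positive and 4.29 in Cre-negative hearts, and that of all genes tested was 0.0153 in Cre-positive and 0.0237 in Cre-negative hearts. Rises and falls are given as log2 fold changes ± SE, with 3 libraries per group. All 48 passed the filter on low counts, which a gene can pass through its MI libraries alone.

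All 5 genes of mitotic entry rose in both genotypes. Ccna2 (Entrez 12428, chromosome 3, 36564865 to 36573038), the A-type cyclin of S phase and mitosis, had 24.4, 26.3 and 36.4 CPM in Cre-positive MI libraries, against 0.322, 0.733 and 0.722 CPM in Cre-positive sham libraries. In Cre-negative hearts it had 41.7, 37.7 and 39.2 CPM after MI, against 0.659, 1.198 and 2.37 CPM after sham surgery, and in neither genotype did MI and sham overlap. Its log2 fold change was 5.63 ± 0.35 (adjusted p = 3.08e-07) in Cre-positive and 4.81 ± 0.30 (adjusted p = 2.45e-07) in Cre-negative hearts (n = 3 per group). The kinase gene Cdk1 rose by 6.71 ± 0.37 in Cre-positive and 5.82 ± 0.31 in Cre-negative hearts. The B-type cyclin gene Ccnb2 rose by 5.55 ± 0.30 in Cre-positive and 5.08 ± 0.25 in Cre-negative hearts, and Foxm1, a transcription factor of G2 genes, by 3.56 ± 0.32 in Cre-positive and 4.31 ± 0.32 in Cre-negative hearts. Ccnb1 had 382 reads in Cre-positive MI and 1 in Cre-positive sham hearts, a ratio of 287 with a 95% counting interval of 51.2 to 11370, and rose by 5.47 ± 0.43 in Cre-negative hearts.

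The 6 mitotic kinases rose in both genotypes too. Plk1 (Entrez 18817, chromosome 7, 122159435 to 122169884), which drives centrosome maturation and mitotic entry, had 10.8, 13.1 and 16.3 CPM in Cre-positive MI libraries, against 0.402, 0.5498 and 0.413 CPM in Cre-positive sham libraries. Its Cre-negative libraries held 22.96, 18.9 and 18.3 CPM after MI, against 0.4704, 0.998 and 0.887 CPM after sham surgery. MI libraries were far above sham libraries in each genotype, and the log2 fold change was 4.85 ± 0.28 (adjusted p = 1.75e-07) in Cre-positive and 4.67 ± 0.25 (adjusted p = 1.11e-07) in Cre-negative hearts. Aurka, the Aurora kinase of the spindle poles, rose by 2.97 ± 0.26 in Cre-positive and 3.42 ± 0.25 in Cre-negative hearts. Aurkb, the kinase of the chromosomal passenger complex, rose by 5.86 ± 0.40 in Cre-positive and 4.87 ± 0.34 in Cre-negative hearts.

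The other passenger complex genes among the 48, Birc5 and the borealin gene Cdca8, rose in both genotypes. Birc5 (Entrez 11799, chromosome 11, 117849237 to 117855743) had 12.2, 14.6 and 16 CPM in Cre-positive MI libraries, against 0.643, 0.916 and 0.619 CPM in Cre-positive sham libraries. In Cre-negative hearts it had 20.8, 17.7 and 20.3 CPM after MI, against 0.376, 0.899 and 1.77 CPM after sham surgery. The surgeries did not overlap in either genotype, and the log2 fold change was 4.28 ± 0.32 (adjusted p = 1.17e-06) in Cre-positive and 4.27 ± 0.31 (adjusted p = 5.31e-07) in Cre-negative hearts. Cdca8 rose by 6.09 ± 0.46 in Cre-positive and 4.47 ± 0.35 in Cre-negative hearts.

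Of the 8 checkpoint and kinetochore genes, 8 rose in Cre-positive and 7 in Cre-negative hearts, the exception being Cenpf. Cenpe, the kinesin that moves chromosomes to the spindle equator, rose by 5.18 ± 0.26 in Cre-positive and 4.94 ± 0.23 in Cre-negative hearts. Ndc80, whose product binds microtubules at the kinetochore, rose by 5.25 ± 0.36 in Cre-positive and 4.26 ± 0.30 in Cre-negative hearts. Bub1b, the checkpoint protein BubR1, rose by 3.95 ± 0.50 in Cre-positive and 4.75 ± 0.50 in Cre-negative hearts. Nuf2 and Spc25, further subunits of the Ndc80 complex, rose by 3.48 ± 0.27 and 3.5 ± 0.28 in Cre-positive and by 3.45 ± 0.25 and 3.86 ± 0.28 in Cre-negative hearts.

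All 7 genes of chromosome condensation and surface rose, over a wide span of sizes. Ncapd2 (Entrez 68298, chromosome 6, 125168007 to 125192100), a subunit of condensin I, had 38.3, 39.2 and 40.4 CPM in Cre-positive MI libraries, against 31.8, 23.9 and 27.95 CPM in Cre-positive sham libraries. Its Cre-negative libraries held 46.7, 46.6 and 47.7 CPM after MI, against 28.1, 28.4 and 29.6 CPM after sham surgery. The surgeries did not overlap, but its rise was the smallest of the members called higher, at 0.49 ± 0.10 (adjusted p = 0.00183) in Cre-positive and 0.71 ± 0.10 (adjusted p = 9.06e-05) in Cre-negative hearts. Top2a, which untangles the copied DNA, rose by 6.37 ± 0.35 in Cre-positive and 5.24 ± 0.30 in Cre-negative hearts. Mki67, which encodes Ki-67, a protein that coats mitotic chromosomes, rose by 6.21 ± 0.35 in Cre-positive and 5.07 ± 0.29 in Cre-negative hearts. The condensin core gene Smc2 rose by 2.66 ± 0.15 in Cre-positive and 2.54 ± 0.15 in Cre-negative hearts, and its partner Smc4 by 1.61 ± 0.23 in Cre-positive and 1.45 ± 0.23 in Cre-negative hearts. The condensin I subunit gene Ncaph rose by 2.91 ± 0.21 in Cre-positive and 3.4 ± 0.21 in Cre-negative hearts, and Ncapg, another, by 5.08 ± 0.52 in Cre-negative hearts.

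**Figure D2:**
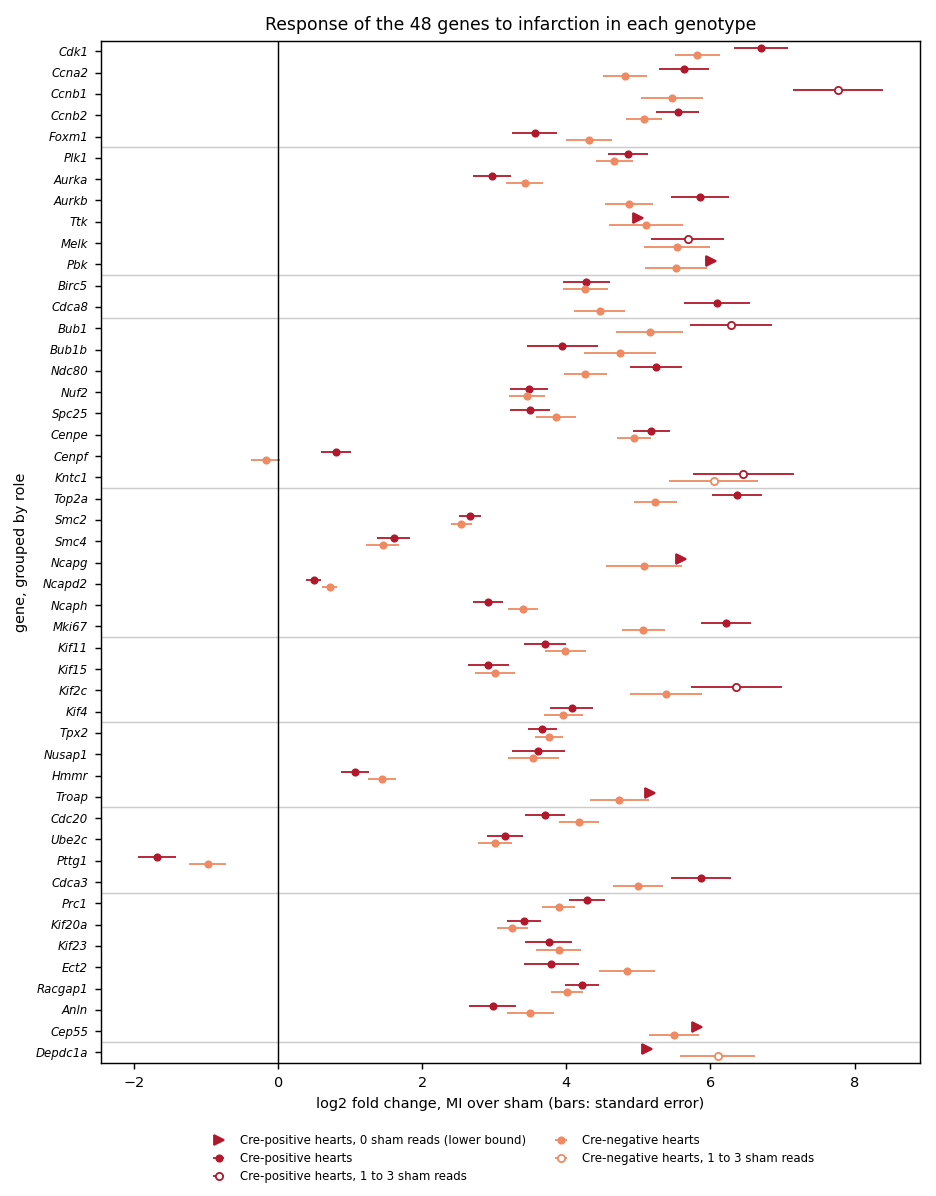
Log2 fold change of MI over sham (horizontal axis, bars are standard errors) for the 48 genes in Cre-positive and Cre-negative hearts, grouped by role. Arrowheads are lower bounds for 6 genes with 0 reads in Cre-positive sham libraries, open circles stand on 1 to 3 sham reads, and Pttg1 is the one gene to the left of 0 in both genotypes.

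The 4 spindle kinesins rose in both genotypes. Kif11 (Entrez 16551, chromosome 19, 37376382 to 37421863), the motor that pushes the spindle poles apart, had 9.89, 11.02 and 13.9 CPM in Cre-positive MI libraries, against 0.483, 1.19 and 1.03 CPM in Cre-positive sham libraries. Its Cre-negative libraries held 18.5, 15.9 and 18.4 CPM after MI, against 0.847, 0.799 and 1.68 CPM after sham surgery. MI libraries stood above sham libraries throughout, and the log2 fold change was 3.7 ± 0.29 (adjusted p = 1.67e-06) in Cre-positive and 3.98 ± 0.28 (adjusted p = 5.24e-07) in Cre-negative hearts. Kif4, a kinesin bound to chromosome arms, rose by 4.07 ± 0.30 in Cre-positive and 3.96 ± 0.27 in Cre-negative hearts. Kif15, which works beside Kif11, rose by 2.92 ± 0.28 in Cre-positive and 3.01 ± 0.27 in Cre-negative hearts.

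The 4 spindle assembly factors rose as well. Tpx2 (Entrez 72119, chromosome 2, 152847964 to 152895321), which activates Aurora A on the spindle, had 21.95, 19.9 and 26.8 CPM in Cre-positive MI libraries, against 1.37, 2.02 and 2.06 CPM in Cre-positive sham libraries. Cre-negative hearts had 33.3, 32.5 and 32.1 CPM after MI, against 2.16, 1.897 and 3.15 CPM after sham surgery. The surgeries were apart in both genotypes, with a log2 fold change of 3.67 ± 0.20 (adjusted p = 1.32e-07) in Cre-positive and 3.76 ± 0.19 (adjusted p = 8.97e-08) in Cre-negative hearts. Hmmr, a spindle protein that also binds hyaluronan, had 11.6, 12.5 and 12.5 CPM in Cre-positive MI libraries, against 4.102, 8.06 and 5.36 CPM in Cre-positive sham libraries, and rose by 1.06 ± 0.20 in Cre-positive and 1.45 ± 0.20 in Cre-negative hearts. Nusap1, which binds spindle microtubules near chromosomes, rose by 3.61 ± 0.37 in Cre-positive and 3.54 ± 0.35 in Cre-negative hearts.

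All 7 cytokinesis genes rose. Prc1 (Entrez 233406, chromosome 7, 80294445 to 80316259), which bundles the microtubules of the central spindle, had 20.5, 19.5 and 29.3 CPM in Cre-positive MI libraries, against 1.29, 1.56 and 0.619 CPM in Cre-positive sham libraries. In Cre-negative hearts it had 29.05, 32.3 and 30.2 CPM after MI, against 1.88, 2.396 and 1.87 CPM after sham surgery. The surgeries were again apart, with a log2 fold change of 4.29 ± 0.25 (adjusted p = 1.85e-07) in Cre-positive and 3.89 ± 0.23 (adjusted p = 1.68e-07) in Cre-negative hearts. Anln, which encodes the contractile ring protein anillin, rose by 2.98 ± 0.33 in Cre-positive and 3.5 ± 0.32 in Cre-negative hearts. Ect2, the exchange factor that activates RhoA at the division plane, rose by 3.79 ± 0.38 in Cre-positive and 4.84 ± 0.39 in Cre-negative hearts. Kif20a, a kinesin of the central spindle, rose by 3.41 ± 0.23 in Cre-positive and 3.25 ± 0.22 in Cre-negative hearts. Racgap1 and Kif23 form centralspindlin, and rose by 4.21 ± 0.24 and 3.75 ± 0.33 in Cre-positive and by 4.01 ± 0.22 and 3.89 ± 0.32 in Cre-negative hearts.

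For 6 members no read was found in the 3 Cre-positive sham libraries, where 0 reads allow up to 0.0908 CPM (3 reads over the group, for counting error only). Against that floor Pbk was at least 64.6-fold higher in Cre-positive MI hearts, Cep55 at least 56.4-fold, Ncapg at least 48.1-fold, Troap at least 35.8-fold, Depdc1a at least 34.8-fold and Ttk at least 31.8-fold. Another 5 members had 1 to 3 reads there. Besides Ccnb1 and Kntc1 these were Kif2c, a microtubule-depolymerising kinesin, with a ratio of 94.7 (95% counting interval 25.9 to 786), the checkpoint kinase gene Bub1, with 90.5 (24.8 to 751.8), and Melk, a mitotic kinase, with 56.9 (19.2 to 277.7). In Cre-negative hearts Kif2c rose by 5.38 ± 0.50, Bub1 by 5.16 ± 0.47 and Melk by 5.54 ± 0.45. In Cre-negative sham hearts 2 members, Kntc1 and Depdc1a, had 1 to 3 reads. All 48 genes together had 28245 reads in Cre-positive MI, 43455 in Cre-negative MI, 6191 in Cre-positive sham and 6018 in Cre-negative sham hearts.

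Among the members with the fewest sham reads, Depdc1a (Entrez 76131, chromosome 3, 159495414 to 159529955), placed in no role class, had 2.71, 2.61 and 4.11 CPM in Cre-positive MI libraries, against 5.51, 3.93 and 5.87 CPM in Cre-negative MI libraries, and 0 and 2 reads in Cre-positive and Cre-negative sham hearts. Ttk, the kinase that starts the spindle checkpoint, had 2.24, 3.11 and 3.32 CPM in Cre-positive MI libraries, against 6.09, 4.496 and 3.802 CPM in Cre-negative MI libraries, with 0 and 4 sham reads in Cre-positive and Cre-negative hearts. Cep55, which organises the final cut between daughter cells, had 4.81, 4.17 and 6.305 CPM in Cre-positive MI libraries, against 9.68, 7.93 and 10.01 CPM in Cre-negative MI libraries, with 0 and 6 sham reads. Ncapg, a condensin I subunit, had 3.86, 3.53 and 5.64 CPM in Cre-positive MI libraries, against 7.42, 6.99 and 6.34 CPM in Cre-negative MI libraries, with 0 and 6 sham reads. MI and sham libraries were apart in each case, but so few sham reads leave the size of the rise loosely fixed.

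Kntc1, part of the complex that brings checkpoint proteins to kinetochores, had 2.98, 2.69 and 4.78 CPM in Cre-positive MI libraries, against 4.58, 4.18 and 6.003 CPM in Cre-negative MI libraries, with 1 and 2 sham reads in Cre-positive and Cre-negative hearts. Its ratio of MI to sham was 116 (95% counting interval 20.5 to 4599) in Cre-positive and 75.3 (20.6 to 625.4) in Cre-negative hearts. Pbk, a mitotic kinase, had 5.69, 4.88 and 6.97 CPM in Cre-positive MI libraries, against 8.35, 7.49 and 7.804 CPM in Cre-negative MI libraries, with 0 and 5 sham reads in the same order. Troap, a microtubule-binding spindle protein, had 2.57, 3.32 and 3.85 CPM in Cre-positive MI libraries, against 5.28, 5.81 and 5.27 CPM in Cre-negative MI libraries, with 0 and 6 sham reads. Both Pbk and Troap stood lower in every Cre-positive than in every Cre-negative MI library.

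Pttg1 (Entrez 30939, chromosome 11, 43420244 to 43427463) went the other way. Its product securin holds separase, the enzyme that cuts cohesin, inactive until anaphase. It had 29, 35.1 and 31.1 CPM in Cre-positive MI libraries, against 103, 106 and 96.9 CPM in Cre-positive sham libraries, with no overlap. In Cre-negative hearts it had 43.5, 29.6 and 49.96 CPM after MI, against 102, 44.9 and 96.1 CPM after sham surgery, and sham replicate 2 lay within the MI range. Pttg1 fell by 1.68 ± 0.26 (adjusted p = 0.000278) in Cre-positive and by 0.98 ± 0.26 (adjusted p = 0.00678) in Cre-negative hearts, on the log2 scale. The other three genes of anaphase and mitotic exit rose. Cdc20, an activator of the anaphase promoting complex, rose by 3.7 ± 0.27 in Cre-positive and 4.18 ± 0.28 in Cre-negative hearts. Ube2c rose by 3.15 ± 0.25 in Cre-positive and 3.01 ± 0.24 in Cre-negative hearts, and Cdca3, which triggers mitotic entry, by 5.87 ± 0.42 in Cre-positive and 4.997 ± 0.35 in Cre-negative hearts.

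Cenpf (Entrez 108000, chromosome 1, 189640606 to 189688107), a large kinetochore protein, was called in one genotype. It had 19.6, 30.03 and 18.2 CPM in Cre-positive MI libraries, against 13.5, 11.2 and 14.2 CPM in Cre-positive sham libraries, which do not overlap, and rose by 0.80 ± 0.21 (adjusted p = 0.00806). In Cre-negative hearts it had 18.4, 22.2 and 20.9 CPM after MI, against 27.1, 24.8 and 17.4 CPM after sham surgery, which overlap, with a log2 fold change of -0.17 ± 0.20 (adjusted p = 0.495). The difference of the response between genotypes was 0.97 ± 0.29 (95% interval 0.34 to 1.61) and did not pass the threshold (adjusted p = 0.552).

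**Figure D3:**
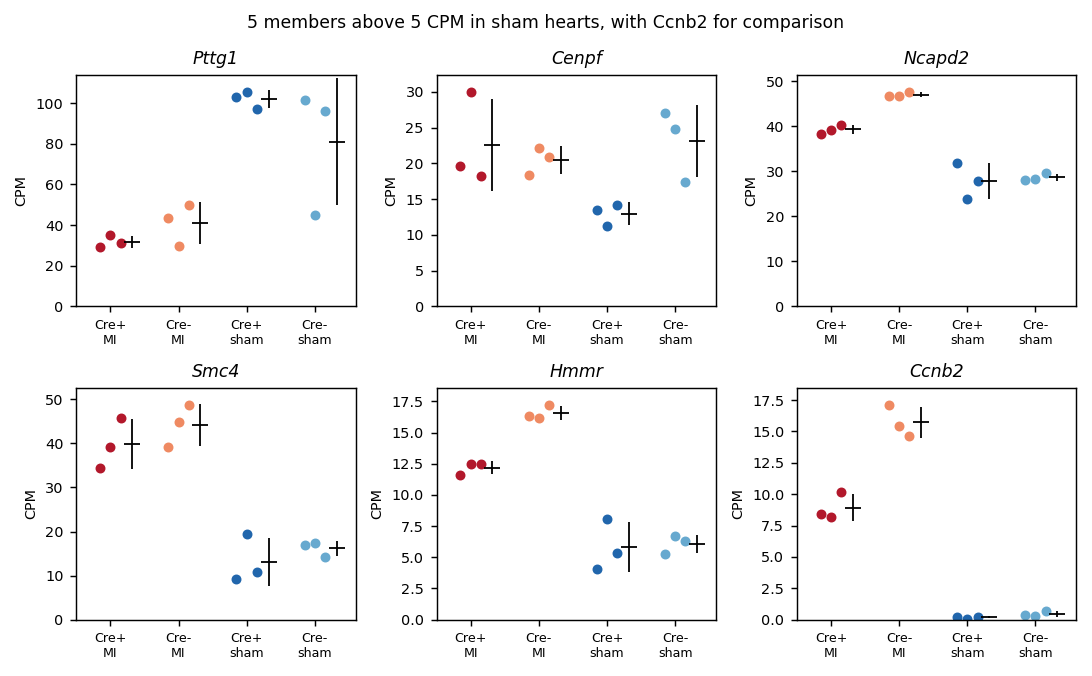
CPM per library (points) with mean and SD (black) in the 4 groups for the 5 members at or above 5 CPM in sham hearts, and for Ccnb2. Pttg1 is lower after MI than after sham surgery in Cre-positive hearts, Cenpf overlaps between surgeries in Cre-negative hearts, and Ccnb2 lies under 1 CPM in every sham library.

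The next comparison asked whether the 48 genes differ between genotypes after MI. None was called at an adjusted p under 0.05, and 0% of all 13678 genes tested were (edgeR). Of the 48, 47 had a log2 fold change below 0, with a median of -0.538 (all genes tested -0.00724). An unadjusted p under 0.05 was reached on the lower side by 34 members and on the higher side by 0, against 6.95% of all genes on the lower side. In 39 members (81.2%) every Cre-positive MI library was below every Cre-negative MI library, against 15.2% of all genes. The 9 others were Bub1, Cenpf, Kntc1, Smc4, Kif15, Nusap1, Pttg1, Prc1 and Depdc1a. Members that move together within a library are not independent, so these counts do not add up to a test.

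Ccnb2 (Entrez 12442, chromosome 9, 70407689 to 70421554) had the smallest p of the members. It had 8.401, 8.197 and 10.2 CPM in Cre-positive MI libraries, against 17.1, 15.4 and 14.6 CPM in Cre-negative MI libraries, with no overlap. The log2 fold change was -0.82 ± 0.17 (95% interval -1.19 to -0.45, adjusted p = 0.202). The widest difference was that of Cep55, at -0.85 ± 0.21 (95% interval -1.32 to -0.38, adjusted p = 0.243), and Kif4 stood at -0.79 ± 0.20 (-1.22 to -0.35, adjusted p = 0.233). Mki67 had 39.4, 42.3 and 54.9 CPM in Cre-positive MI libraries, against 67.2, 69.4 and 67.8 CPM in Cre-negative MI libraries, a difference of -0.58 ± 0.22 (adjusted p = 0.313). Smc4 and Cenpf stood closest to 0, at -0.15 ± 0.21 and 0.14 ± 0.20.

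The call depends on the test used. In the authors' deposited table, 18 of the 48 genes were lower at an adjusted p under 0.05, where 2.23% of its genes were, and none was higher. They are Cdk1, Ccnb1, Ccnb2, Foxm1, Plk1, Bub1b, Top2a, Mki67, Kif11, Kif2c, Kif4, Tpx2, Cdca3, Kif20a, Ect2, Racgap1, Anln and Cep55. A DESeq2 fit to these 2 groups alone, added after the data were seen, called 20 members lower, those 18 with Aurka and Nuf2, and 3.76% of all genes given an adjusted p were called lower. With all 4 groups in the fit, DESeq2 gave 36 of the 48 an adjusted p and called Ccnb1, Ccnb2 and Kif2c lower. Of all genes given an adjusted p in that fit, 0.714% were called lower. The log2 fold change of Ccnb2 in the authors' deposited table was -0.80, with an adjusted p of 0.000849.

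**Figure D4:**
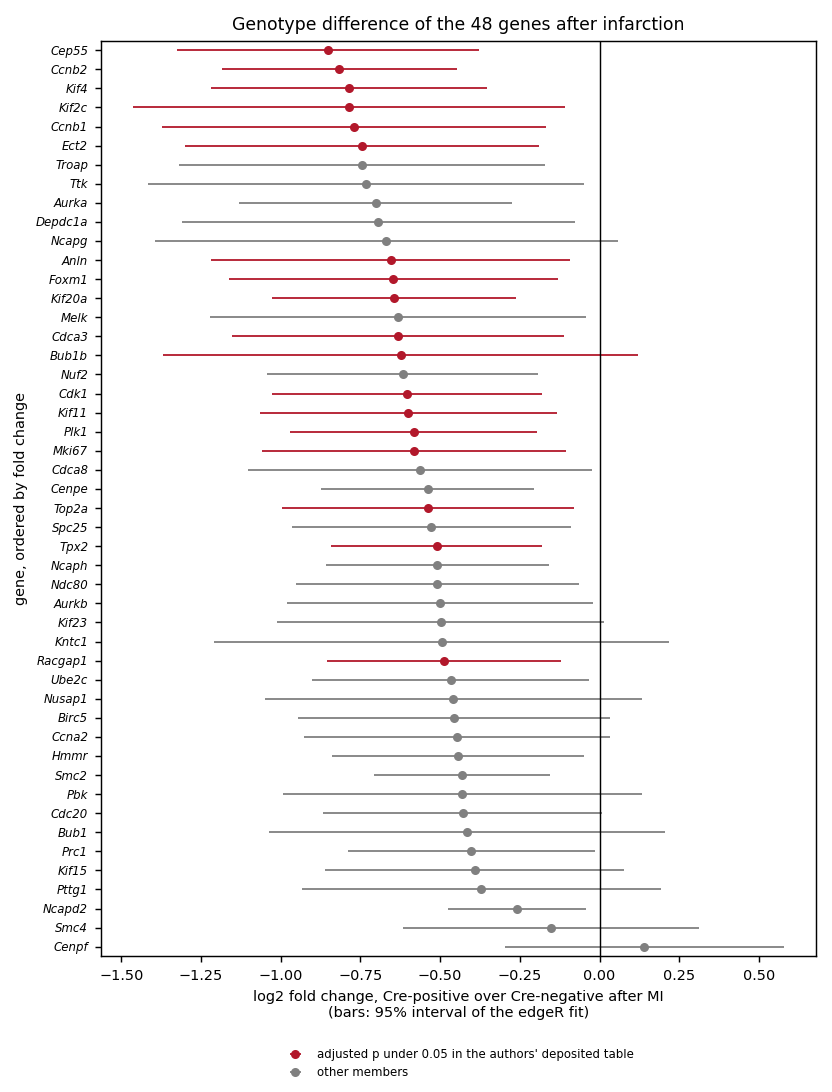
Log2 fold change of Cre-positive over Cre-negative hearts after MI for the 48 genes (bars are 95% intervals of the edgeR fit, not adjusted for the number of genes), ordered by size. Red marks the 18 genes under an adjusted p of 0.05 in the authors' deposited table, and 47 of the 48 points lie below 0.

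The libraries of a group also differed among themselves. In Cre-positive MI, replicate 3 was the highest of its group for 42 of the 48 genes and replicate 1 the lowest for 29. The 48 genes summed to 572.9, 610.3 and 740.1 CPM in the Cre-positive MI libraries, against 914, 876 and 911.2 CPM in the Cre-negative MI libraries, so the highest Cre-positive library still stood below the lowest Cre-negative one. In Cre-negative sham, replicate 3 was the highest for 28 genes and replicate 1 the lowest for 27. In Cre-negative MI the highest value fell to replicates 1, 2 and 3 for 22, 9 and 17 genes.

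After sham surgery none of the 48 was called between genotypes, where 0.0512% of all genes were. Most of the 48 passed the filter on low counts through their MI libraries. Fitted to the 2 sham groups alone, edgeR tested 16 of the 48, of which 14 were below 0, with a median log2 fold change of -0.322 and 0 called. In the fit to all 4 groups, over the 37 members with more than 3 reads in both sham groups the median log2 fold change was -0.55, with 32 below 0 and 5 above. Cenpf had the smallest adjusted p of the 48, at -0.83 ± 0.21 (adjusted p = 0.564), and its genotypes did not overlap. Mki67 had 0.804, 0.275 and 0.722 CPM in Cre-positive sham libraries, against 0.941, 1.897 and 3.25 CPM in Cre-negative sham libraries, also without overlap. DESeq2 with all 4 groups called Mki67 alone of the members (log2 fold change -1.73, adjusted p = 0.0198). Of the 12367 genes given an adjusted p, that fit called 26 lower. The Mki67 call rests on 20 reads in Cre-positive and 62 in Cre-negative sham hearts.

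The response to infarction, set between genotypes, gave no call among the 48 or among all genes (0%). On the higher side, meaning a larger rise in Cre-positive hearts, 5 members had an unadjusted p under 0.05, against 4.26% of all genes, and 0 on the lower side. They were Cenpf, Mki67, Cep55, Pbk and Troap, and of these Cep55, Pbk and Troap had no read in Cre-positive sham libraries. Over the 37 members with more than 3 reads in both sham groups the difference ran between -1.05 and 1.62 on the log2 scale. The side depends on the scale: over all 48 members the median was 0.175 in the edgeR fit, with 15 below 0, and -0.208 with limma on log2(FPKM + 0.1), with 32 below 0. Single libraries moved the edgeR median by more than 1.5 times. Without Cre-positive MI replicate 1 it was 0.265 and without replicate 3 0.0347, without Cre-positive sham replicate 1 0.469 and without replicate 3 0.084, and without Cre-negative sham replicate 1 0.455 and without replicate 3 0.0654. For Birc5 the difference was 0.01 ± 0.36 (95% interval -0.77 to 0.79).

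Other genes of the same processes were taken from lists that share no gene with the 48. Of all genes tested, 25.7% were called higher and 19.5% lower in Cre-positive hearts. In Cre-negative hearts 29.9% were called higher and 24.4% lower, and the injury counts of every list below stand beside these shares. Of 41 other spindle and cytokinesis genes, 30 rose and 1 fell in Cre-positive, and 32 rose and 2 fell in Cre-negative hearts. Ckap2, a microtubule-stabilising protein, rose by 5.32 ± 0.28 in Cre-positive and 4.85 ± 0.26 in Cre-negative hearts, and the chromosome-arm kinesin Kif22 by 5.01 ± 0.34 in Cre-positive and 5.22 ± 0.32 in Cre-negative hearts. Numa1, which anchors microtubules at spindle poles and is a nuclear protein in interphase, fell by 0.42 ± 0.08 in Cre-positive and by 0.41 ± 0.08 in Cre-negative hearts. Ckap5, a microtubule polymerase, fell by 0.37 ± 0.11 in Cre-negative hearts. Of 36 other kinetochore and checkpoint genes, 27 rose in Cre-positive and 28 in Cre-negative hearts and 0 fell. Trip13, which recycles the checkpoint protein Mad2, rose by 3.17 ± 0.27 in Cre-positive and 4.15 ± 0.28 in Cre-negative hearts, and Mad2l1, which encodes Mad2, by 1.37 ± 0.15 in Cre-positive and 1.88 ± 0.15 in Cre-negative hearts.

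Of 17 genes of the anaphase promoting complex and its inhibitors, 4 rose and 2 fell in Cre-positive, and 5 rose and 2 fell in Cre-negative hearts. Those rises are close to the shares of all genes called higher, 25.7% in Cre-positive and 29.9% in Cre-negative hearts. The falls are below the shares called lower, 19.5% in Cre-positive and 24.4% in Cre-negative hearts. Fbxo5, the inhibitor Emi1, rose by 2.29 ± 0.30 in Cre-positive and 2.72 ± 0.28 in Cre-negative hearts. The subunit gene Anapc13 fell by 0.54 ± 0.09 in Cre-positive and by 0.77 ± 0.09 in Cre-negative hearts, and Anapc16 fell by 0.51 ± 0.12 in Cre-positive and by 0.53 ± 0.12 in Cre-negative hearts. Of 13 cohesin and separase genes, 5 rose and 0 fell in Cre-positive hearts, and 3 rose and 1, the cohesin regulator Pds5b, fell in Cre-negative hearts (fell by 0.30 ± 0.11). Espl1, separase itself, rose by 3.21 ± 0.25 in Cre-positive and 2.96 ± 0.23 in Cre-negative hearts. Cdca5, which encodes the cohesin protector sororin, was called higher in both genotypes from 0 Cre-positive and 3 Cre-negative sham reads. Of the 3 condensin II genes, Ncapg2 rose by 3.42 ± 0.25 in Cre-positive and 2.89 ± 0.23 in Cre-negative hearts, and Ncapd3 fell by 0.42 ± 0.13 in Cre-negative hearts.

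Of 13 genes of the G2 to M switch, 9 rose and 0 fell in Cre-positive, and 10 rose and 2 fell in Cre-negative hearts. Cks2, a small subunit that binds Cdk1, rose by 4.58 ± 0.25 in Cre-positive and 5.09 ± 0.25 in Cre-negative hearts, and Mastl, the Greatwall kinase, by 3.09 ± 0.29 in Cre-positive and 3.5 ± 0.29 in Cre-negative hearts. Its substrates Ensa and Arpp19 fell by 0.32 ± 0.11 and by 0.32 ± 0.11 in Cre-negative hearts. Of 14 genes of the DREAM and MuvB complexes, which repress cell cycle genes in resting cells and activate them in G2, 6 rose and 4 fell in Cre-positive, and 5 rose and 3 fell in Cre-negative hearts. The activating partner Mybl2 rose by 3.68 ± 0.36 in Cre-positive and 4.26 ± 0.35 in Cre-negative hearts, and Tfdp1, a partner of E2F factors, by 0.51 ± 0.08 in Cre-positive and 0.74 ± 0.08 in Cre-negative hearts. Rbl2 (p130), the repressive pocket protein, fell by 0.52 ± 0.19 in Cre-positive and by 0.90 ± 0.19 in Cre-negative hearts. The MuvB subunit gene Lin52 fell by 0.65 ± 0.15 in Cre-positive and by 0.67 ± 0.15 in Cre-negative hearts, and Dyrk1a, a kinase that promotes DREAM assembly, fell by 0.48 ± 0.09 in Cre-positive and by 0.40 ± 0.09 in Cre-negative hearts. Tfdp2, the most abundant gene of this list, fell by 1.12 ± 0.42 in Cre-positive hearts. The list summed to 517.1, 906.1 and 568.3 CPM in Cre-positive sham libraries, highest in replicate 2, the library that stood apart. Across Cre-positive MI libraries it summed to 475.3 to 506 CPM. Whether the fall of Tfdp2 holds without that sham library was not tested.

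Among 13 tested Cdk inhibitors and related genes, 5 rose and 2 fell in Cre-positive, and 6 rose and 3 fell in Cre-negative hearts. The antiproliferative gene Btg1 rose by 1.003 ± 0.09 in Cre-positive and 1.03 ± 0.09 in Cre-negative hearts. Cdkn3, a phosphatase of Cdk proteins, was called higher from 3 Cre-positive and 4 Cre-negative sham reads. Cdkn1c (p57) fell by 0.70 ± 0.17 in Cre-positive and by 1.36 ± 0.17 in Cre-negative hearts, and Cdkn1b (p27) fell by 0.30 ± 0.11 in Cre-positive and by 0.48 ± 0.11 in Cre-negative hearts. Ccng1 fell by 0.69 ± 0.22 in Cre-negative hearts. Of 8 G1 cyclins and kinases, 3 rose and 1, Ccnd2, fell in Cre-positive hearts (fell by 0.41 ± 0.15), and 5 rose and 0 fell in Cre-negative hearts. Cdk4 rose by 0.58 ± 0.09 in Cre-positive and 0.90 ± 0.09 in Cre-negative hearts, and Myc by 1.61 ± 0.29 in Cre-positive and 1.91 ± 0.29 in Cre-negative hearts.

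Genes of S phase, in which DNA is copied before G2 and mitosis, moved in the same direction. Of 46, 38 rose in Cre-positive and 39 in Cre-negative hearts and 0 fell, and the median was 1.41 in Cre-positive and 1.81 in Cre-negative hearts. The helicase subunit gene Mcm6 rose by 2.08 ± 0.13 in Cre-positive and 2.37 ± 0.13 in Cre-negative hearts, and Uhrf1, which maintains DNA methylation, by 3.67 ± 0.26 in Cre-positive and 3.94 ± 0.25 in Cre-negative hearts. The list summed to 511.5 to 602.8 CPM across Cre-positive MI libraries, 678.1 to 699.9 across Cre-negative MI libraries, 270.3 to 288.1 across Cre-positive sham libraries and 270.3 to 274.2 across Cre-negative sham libraries. After MI, 44 of the 46 had a log2 fold change below 0 between genotypes, with a median of -0.408, 30 were lower without overlap, against 15.2% of all genes, and 0 were called. Mcm6 was at -0.54 ± 0.11 (adjusted p = 0.202). Of the other spindle genes 38 of 41 were below 0 there, and of the other kinetochore genes 35 of 36, with 0 called in both lists.

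Markers of cell types moved with the same comparisons. Macrophage markers (14 genes, led by Lyz2) summed to 1986 to 2156 CPM across Cre-positive MI libraries, 2517 to 2903 across Cre-negative MI libraries, 168 to 559.2 across Cre-positive sham libraries and 456.4 to 546.2 across Cre-negative sham libraries. In each genotype 13 of the 14 were called higher after MI. Activated fibroblast markers (8 genes, led by Fn1) summed to 2677 to 3018 CPM across Cre-positive MI libraries, 4388 to 4763 across Cre-negative MI libraries, 109.2 to 310.4 across Cre-positive sham libraries and 325.3 to 390 across Cre-negative sham libraries. All 8 were called higher after MI in both genotypes, and all 8 had a log2 fold change below 0 between genotypes after MI, with 0 called. After sham surgery 3 of the 8, Postn, Tnc and Cthrc1, were called lower in Cre-positive hearts, where 0.0512% of all genes were called. The list holds Postn, the gene with the altered allele. Without it the other 7 summed to between 2049 and 2344 CPM in Cre-positive MI, against 2860 and 3079 CPM in Cre-negative MI hearts, and to between 105.5 and 300.1 CPM in Cre-positive sham, against 214.3 and 327.3 CPM in Cre-negative sham hearts, so that the sham groups overlapped. Fibroblast markers (9 genes, led by Col1a1) summed to 12480 to 13890 CPM across Cre-positive MI libraries, 15320 to 16960 across Cre-negative MI libraries, 2314 to 3638 across Cre-positive sham libraries and 3487 to 4105 across Cre-negative sham libraries. After MI 7 of these 9 were below 0 between genotypes, with 0 called. Cardiomyocyte markers (10 genes) summed to 63690 to 75490 CPM across Cre-positive MI libraries, against 45050 to 62130 CPM across Cre-negative MI libraries, so this list stood the other way round.

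The sums of the other cell type marker lists overlapped between genotypes after MI. Endothelial markers (9 genes, led by Cdh5) summed to 1070 to 1128 CPM in Cre-positive MI, against 1094 to 1133 CPM in Cre-negative MI hearts. Neutrophil markers (8 genes, led by Csf3r) summed to 27.51 to 62.54 CPM in Cre-positive MI, against 50.16 to 110.8 CPM in Cre-negative MI hearts. All 7 neutrophil markers tested had a log2 fold change below 0 between genotypes after MI, with a median of -0.811 and 0 called. T and NK cell markers stood at 7.317 to 8.03 and B cell markers at 8.127 to 14.29 CPM in Cre-positive MI, against 6.619 to 9.624 and 9.672 to 18.38 CPM in Cre-negative MI hearts. Smooth muscle and pericyte markers summed to 4975 to 5644 CPM in Cre-positive MI, against 4731 to 5458 CPM in Cre-negative MI hearts. Erythroid markers summed to 1117 to 6361 CPM in Cre-positive MI, against 1927 to 5089 CPM in Cre-negative MI hearts. The part of cell makeup in the level of the 48 genes was not tested. With Y-linked reads as a covariate, the median log2 fold change of the 48 between genotypes after MI was -0.671, 48 of 48 were below 0 and none was called. Such reads were present in 1 of 3 Cre-positive MI and 3 of 3 Cre-negative MI libraries. Genotype and this covariate can therefore hardly be told apart.

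**Figure D5:**
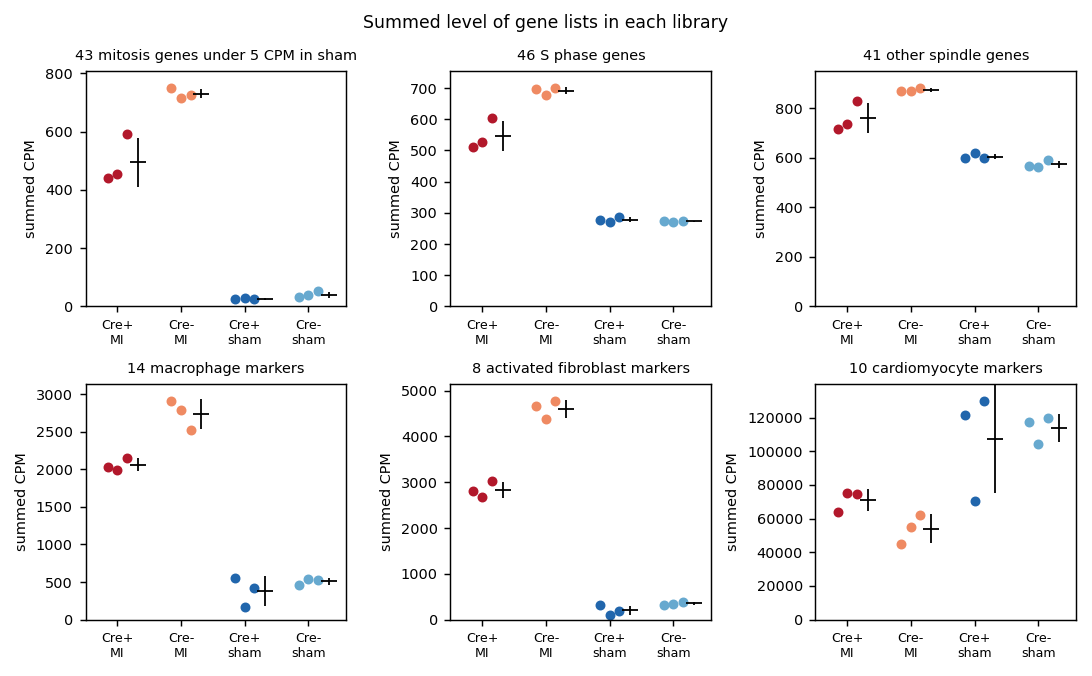
Summed CPM per library (points) with mean and SD (black) for 43 of the 48 mitosis genes, 2 lists of related genes and 3 marker lists in the 4 groups. The sums of the mitosis, S phase, other spindle, macrophage and activated fibroblast lists lie lower in each Cre-positive MI library than in any Cre-negative MI library, and the cardiomyocyte sums lie higher.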

How the data were processed

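The deposited file of each library holds RSEM expected counts and FPKM per gene, computed by the authors, per the file headers. The submitters' processing notes name Bowtie2 2.2.5, RSEM 1.2.12 and the build mm10. The authors deposited further tables of log2 fold changes and adjusted p-values made with DESeq2. The members and lists were chosen with earlier results of these data known.

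Genes that a library file does not list were set to 0, and expected counts were rounded (74.0% of values above 0 were whole within 0.005). In R 4.3.3, edgeR 4.0.16 kept 13678 genes (filterByExpr, minimum count 10) and removed 3793. After TMM scaling (factors 0.893 to 1.14) one quasi-likelihood fit covered all 12 libraries, with a coefficient for each group and 8 residual degrees of freedom. P-values are two-sided, with Benjamini-Hochberg adjustment over all genes tested and calls under 0.05. SE is that of the model, and SD is over 3 libraries. Counting intervals and the floor of 3 reads cover counting error alone, because the reads carry no molecular identifiers. DESeq2 1.42.0, limma 3.58.1 on log2(FPKM + 0.1) and other settings were alternatives. The edgeR fit was run on simulated counts with 50 genes changed at each fold. Between genotypes after MI it called 38% of the 1.5-fold and 92% of the 2-fold changes. In the injury comparisons it called 26% of the 1.5-fold changes in Cre-positive and 34% in Cre-negative hearts. These shares hold for the simulated counts, where 173 genes were called between genotypes after MI. In the real data that comparison called none, and Ccnb2, with an unadjusted p of 0.000404, had an adjusted p of 0.202 (edgeR). The simulated shares therefore cannot be carried over to it, and the lack of calls does not show that 2-fold differences were absent. No 2 libraries held identical counts.

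Library values are given for the member with the highest mean CPM in each role class, members against the common direction and the 6 with the fewest sham reads, with Ncapg, which ties with the last of them. Of each related list, the 2 genes with the smallest p in either injury comparison and those called against their list are named. Other members were named after their values were seen. Gene positions are from RefSeq (GRCm38.p6).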

Additional observations from a re-analysis of the deposited data

How the results depend on the processing

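Alternatives were RLE size factors, no filter on low counts, a threshold of 0.01, a replicate block, Y-linked reads as a covariate, only the groups of the contrast, DESeq2, and limma on log2(FPKM + 0.1), in which the median of all genes was 0.262 and 0.277 in the injury comparisons. With the replicate block 48 members were called after MI in Cre-positive and 47 in Cre-negative hearts, and 0 in the 3 comparisons that involve genotype. The replicate numbers are not known to pair animals: of 18 same-number correlations of deviations from group means, 4 exceeded 0.1 (-0.154 to 0.288). With each library left out in turn, calls ranged from 48 to 48, from 47 to 47 and, in the 3 others, from 0 to 0. DESeq2 called 3 members between genotypes after MI, where 0.714% of genes given an adjusted p were called lower. After sham surgery it called 1 member, where 26 of 12367 such genes were called lower. On the 2 groups alone, chosen after seeing the data, it called 20 after MI, where 3.76% were called lower. Fitted to the 2 groups alone, edgeR tested 16 of the 48 after sham surgery and gave a smallest member adjusted p of 0.0634 after MI. In the edgeR fit to all 4 groups the smallest member adjusted p between genotypes after MI was 0.202. Without Cre-positive sham replicate 2 it was 0.0608 in that fit. Cenpf changed sign in Cre-negative hearts with limma (0.090) and between genotypes after MI with the Y-linked covariate (-0.017). With libraries left out its genotype value after MI ranged from -0.118 to 0.276, and it passed no threshold in these. The cause of these changes was not tested. Depth limits the members with 0 to 3 sham reads.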
